A study of Mus musculus with 12 samples.

Results

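The genes described here encode the machinery of the lysosome: the proton pump that acidifies it, proteins of its membrane, and the hydrolases and cofactors that act in its lumen. They were chosen by symbol from a list of 43. The rule uses no measured value, but the list was drawn up with earlier results of these data known. Of these symbols 42 matched a row in both count tables, out of 56953 genes, and Limp2, an older name of Scarb2, matched none. The 42 genes comprised 14 of the proton pump, 5 membrane proteins, 8 hydrolases acting mainly on lipids, 3 lipid-binding lumenal proteins, 8 hydrolases acting on sugar chains, 2 other lumenal proteins and 2 transcription factors.

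Messenger RNA was sequenced from whole spinal cords of 12 mice, 3 in each of 4 groups: control and Ddx20 cKO mice, each taken 4 or 4.5 weeks after tamoxifen. The cKO mice carried loxP-flanked Ddx20 alleles and the Plp-CreER transgene, a Cre recombinase that tamoxifen activates and that the Plp promoter drives mainly in cells of the oligodendrocyte lineage, which are only some of the cells of the cord. The labels name the other mice as controls without giving their alleles. They describe the 3 mice of a group as independent replicates and give no age at tamoxifen.

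Lysosomes break down lipids, sugar chains and proteins that reach them by endocytosis, phagocytosis and autophagy, and their enzymes need an acidic lumen. The pump (V-ATPase) has a cytosolic sector, V1, which splits ATP, and a membrane sector, V0, which carries protons. In the nervous system, oligodendrocytes, neurons and microglia all depend on lysosomes, and loss of single members causes storage diseases that include Krabbe disease (Galc) and metachromatic leukodystrophy (Arsa), in which myelin is lost.

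Libraries held 33104560 to 47677267 counts. Log2 fold changes below compare cKO with control of the same time and are given ± standard error (SE). The libraries labelled cKO did not hold less Ddx20 message. Its level was 9.78 to 11.1 CPM (counts scaled to a common library size) in 4-week controls and 9.9 to 11.1 in the 4-week cKO libraries, and at 4.5 weeks it was higher in cKO by 0.33 ± 0.10 on the log2 scale (SE; adjusted p = 0.013, edgeR). Cell type markers moved with the labels. The sum of 10 oligodendrocyte markers was 32816 to 35457 CPM in 4-week controls and 14122 to 19144 in 4-week cKO libraries, and 29968 to 30442 against 10679 to 11689 at 4.5 weeks. The sum of 10 microglia markers was 404 to 413 against 764 to 1080 CPM at 4 weeks, and 409 to 411 against 3857 to 4146 at 4.5 weeks. The sum of 10 neuron markers was 8447 to 9669 against 7628 to 8288, then 10381 to 10940 against 2919 to 3102. No marker of these lists was at 0 in all 3 libraries of a group. In bulk tissue, fewer cells of a type and less RNA per cell cannot be told apart, and the part of these marker shifts in the results below was not tested. Xist counts separated the sexes: the 4-week controls and cKO library 3 of 4 weeks had 0 to 3, and the other 8 libraries 13563 to 30525. The 4-week cKO group was thus the only group with both sexes, and a term for sex is estimated from it alone. A fit with that term sets cKO library 3 alone against the controls at 4 weeks. Calls lost in that fit cannot separate sex from the smaller number of animals. At 4.5 weeks, control library 1 held more sensory ganglion and Schwann cell transcripts than the other 2 controls (311 against 7.81 and 7.97 CPM summed over 7 markers) and control library 2 more of skeletal muscle (115 against 2.81 and 10.6 CPM over 4 markers).

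Transcription factors of the TFEB family bind sites built on CACGTG and drive many lysosomal genes, so the promoters of the members were searched for this core. Promoters were RefSeq sequences of GRCm38.p6, from 250 bases before to 50 bases after the start, and 37 of the 42 members had one. The core reads the same on both strands. It was present for 11 of the 37 members (29.7%) and for 8.09% of the 27025 genes with a promoter. The longer GTCACGTG, searched on both strands and containing the core, was in 21.6% of member promoters and 2.55% of all. The following are the 80 bases before the start, 5′ to 3′ on the strand of the gene, with the core in capitals, for the 6 members that hold it wholly in that stretch.

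Lamp1, chr8:13159081-13159160, plus strand: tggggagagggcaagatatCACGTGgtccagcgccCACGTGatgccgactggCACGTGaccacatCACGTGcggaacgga
Mcoln1, chr8:3500439-3500518, plus strand: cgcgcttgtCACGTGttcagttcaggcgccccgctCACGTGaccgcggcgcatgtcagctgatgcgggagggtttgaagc
Atp6v0b, chr4:117887330-117887409, minus strand: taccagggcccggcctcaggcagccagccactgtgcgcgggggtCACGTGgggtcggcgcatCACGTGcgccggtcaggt
Glb1, chr9:114400998-114401077, plus strand: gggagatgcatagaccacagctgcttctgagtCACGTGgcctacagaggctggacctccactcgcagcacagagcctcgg
Naglu, chr11:101070014-101070093, plus strand: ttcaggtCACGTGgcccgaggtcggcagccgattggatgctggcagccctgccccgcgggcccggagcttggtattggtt
Arsa, chr15:89477425-89477504, minus strand: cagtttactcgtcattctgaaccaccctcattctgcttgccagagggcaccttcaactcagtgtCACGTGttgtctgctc

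Lamp1 held 4 copies in this stretch, and Mcoln1 and Atp6v0b held 2 each. A match is a description of letters and not evidence of binding. The 6 genes differed in what their messages did: by 4.5 weeks Naglu, Glb1, Lamp1 and Atp6v0b were higher in cKO, Mcoln1 was lower and Arsa was not called. Of the 11 members with the core, 6 were higher and 4 lower at 4.5 weeks, and of the 26 without it 18 were higher and 6 lower. Over all genes tested, 33.3% were higher and 32.6% lower at that time. The difference between members with and without the core was not tested.

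At 4.5 weeks most of the 14 pump genes were lower in the cKO cords and most of the listed hydrolases, lumenal cofactors and membrane proteins were higher. The pump was not compared with the rest by a test. Among the 42 members, 26 were called higher and 13 lower (adjusted p under 0.05 in edgeR's quasi-likelihood test, Benjamini-Hochberg over all 19278 genes tested). Changes were widespread in these cords, with 33.3% of all genes tested called higher and 32.6% lower, 65.9% in all. Of the 14 pump genes, 2 were higher and 10 lower, with a median log2 fold change of -0.47. Of the 28 members outside the pump, 24 were higher and 3 lower, with a median of 1.26. The median of all genes tested was 0.02. At 4 weeks, 13 members were called higher and 11 lower, against 20.1% and 17.2% of all genes tested (37.2% in all). The lower count depended on the scaling and the tool: with the size factors of DESeq2 in edgeR it was 13 higher and 15 lower, and with the DESeq2 Wald test 13 and 16. The medians then were -0.13 for the pump, 0.02 outside it and 0.01 for all genes. The 3 cKO libraries lay wholly above the controls for 13 members and wholly below for 17 at 4 weeks (24.1% and 23.1% of all genes), and for 27 and 13 members at 4.5 weeks (36.8% and 35.6%). Without control libraries 1 and 2 of 4.5 weeks, 24 members were called higher and 13 lower at that time.

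**Figure D1:**
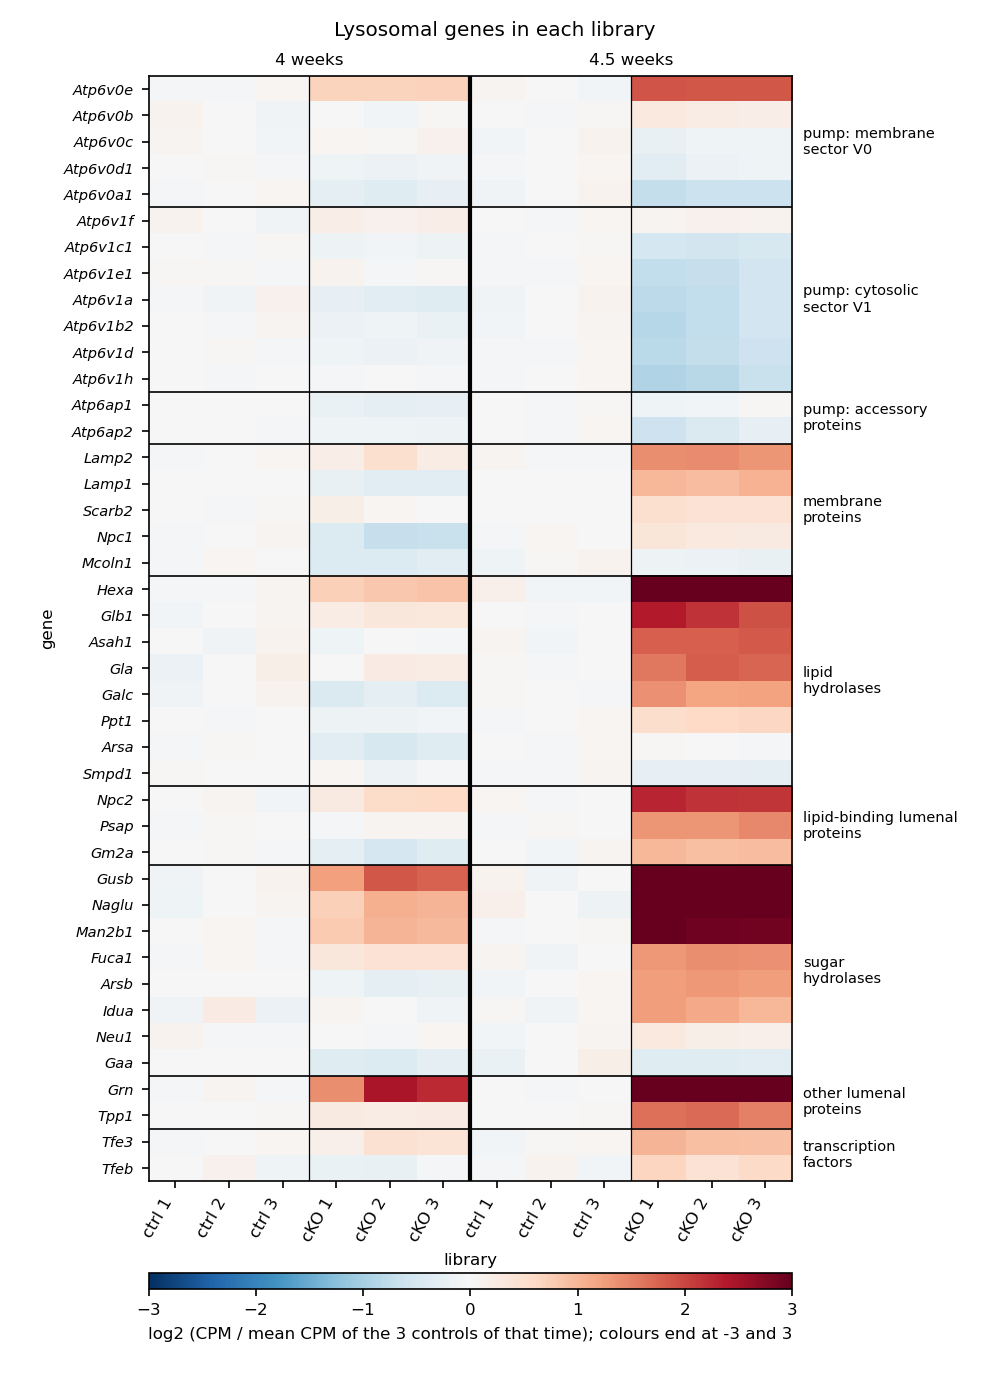
Each row is 1 member and each column 1 library; colour gives the log2 ratio of its CPM to the mean of the 3 controls of the same time (red higher, blue lower, ending at -3 and 3). At 4.5 weeks the V1 rows are blue in all 3 cKO libraries except Atp6v1f, and the rows of most hydrolases are red.

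Within the cytosolic V1 sector, the subunit Atp6v1h, which links ATP splitting to proton flow, was at 147, 154 and 161 CPM in 4.5-week controls and at 81.8, 86.5 and 96.4 in cKO. The cKO libraries all lay below the controls, and the log2 fold change was -0.81 ± 0.06 (adjusted p = 1.6e-07). At 4 weeks its libraries overlapped, at 140 to 145 CPM in controls and 136 to 145 in cKO, and the 95% interval of its change ran from -0.17 to 0.10. Atp6v1a, the catalytic subunit, was at 471, 497 and 542 CPM in 4.5-week controls and 292, 303 and 340 in cKO, a change of -0.69 ± 0.08 (adjusted p = 7.2e-06). It was already lower at 4 weeks (-0.31 ± 0.08, adjusted p = 0.0097), with no overlap of 314 to 338 CPM in cKO with 371 to 441 in controls. That call ended when a term for sex was added, which leaves 1 cKO library against the controls (value -0.35). Atp6v1b2, which forms the ATP-splitting ring with it, and the stalk subunits Atp6v1c1, Atp6v1d and Atp6v1e1 were lower at 4.5 weeks, with log2 fold changes between -0.51 and -0.72, and were not called at 4 weeks, when they lay between -0.17 and 0.03. In these 6 V1 genes the fall was larger at 4.5 than at 4 weeks by the test of the difference between the effects, for which the values ran from -0.38 for Atp6v1a to -0.77 for Atp6v1h. With a term for sex, which leaves 1 cKO library at 4 weeks, the call of Atp6v1a ended, at a value of -0.34. Its control mean rose from 401 CPM at 4 weeks to 503 at 4.5 weeks, while its cKO mean went from 323 to 312. The difference for Atp6v1a thus lay mostly in the controls. The V1 median in single cKO libraries of 4.5 weeks was -0.79, -0.72 and -0.58 relative to the control mean, below 0 in each of the 3 animals.

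Atp6v1f, a small subunit of the V1 stalk, was the exception. It stood at 78, 76.6 and 81.9 CPM in 4.5-week controls and 84, 86.3 and 84.7 in cKO, and its change of 0.11 ± 0.06 was not called (95% interval -0.01 to 0.23). At 4 weeks it was higher by 0.18 ± 0.06 (adjusted p = 0.025), a call that ended in 8 of 22 other ways of fitting the data.

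The membrane sector V0 was split. Atp6v0a1, the large subunit that forms the proton path and the isoform typical of neurons, was at 315, 325 and 338 CPM in 4-week controls and 270, 252 and 275 in cKO. At 4.5 weeks it was at 338, 368 and 391 against 223, 233 and 235. The cKO libraries lay below the controls at both times, with log2 fold changes of -0.30 ± 0.06 (adjusted p = 0.0029) and -0.67 ± 0.06 (9.4e-07). The 4-week call ended with a term for sex, which leaves 1 cKO library, at a value of -0.25. Atp6v0e, a small membrane subunit, went the other way: 23.9, 23.7 and 25.4 CPM in 4-week controls and 38.6, 38.6 and 39.3 in cKO, then 22.1, 20.7 and 19.7 against 76.8, 75.3 and 76.3. Its groups did not overlap at either time, and it was 1.60-fold higher at 4 weeks (log2 0.67 ± 0.06, adjusted p = 2.7e-06) and 3.65-fold at 4.5 weeks (1.87 ± 0.06, 1.1e-10). The other V0 subunits changed little. At 4.5 weeks Atp6v0b, of the proton-carrying ring, was higher (0.24 ± 0.06). Its control mean was 175 CPM at 4 weeks and 132 at 4.5 weeks, and its cKO mean 173 and 156, so the level fell in both. Atp6v0c, the main ring protein, was lower (-0.16 ± 0.07), as was Atp6v0d1, which joins the ring to V1 (-0.19 ± 0.06). None of these 3 was called at 4 weeks by edgeR with TMM scaling. Atp6v0d1 was then at -0.14 ± 0.06 with all cKO libraries below the controls, and was called lower by DESeq2. The call of Atp6v0c (adjusted p = 0.046) ended in 10 of 22 alternatives, and that of Atp6v0b (0.0034) without control libraries 1 and 2 of 4.5 weeks (0.10).

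Of the accessory proteins, which help assemble the pump, Atp6ap1 was lower at 4 weeks (-0.25 ± 0.05, adjusted p = 0.003) and not called at 4.5 weeks (95% interval -0.17 to 0.06). Atp6ap2, also known as the prorenin receptor, was not called at 4 weeks (-0.14 ± 0.07) and lower at 4.5 weeks (-0.43 ± 0.07, adjusted p = 0.00022). The cKO libraries of 4.5 weeks were spread for this gene, at 121, 137 and 157 CPM, all below the controls at 182 to 193.

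Several pump subunits have paralogs outside the 42 genes. Of 11 such isoforms 7 passed the filter on low counts, of which 4 were higher and 2 lower at 4.5 weeks (median 0.46) and 3 were higher and 0 lower at 4 weeks. Over all genes tested, 33.3% were higher and 32.6% lower at 4.5 weeks, and 20.1% and 17.2% at 4 weeks. Atp6v0d2, among those called higher, had 1, 20 and 6 counts over the 4-week control, 4-week cKO and 4.5-week control libraries. It passed the filter only through the 4.5-week cKO libraries, where it was high, so its place in these counts is not independent. The paralogs were compared per length, as a share of the CPM per kilobase of each family. This comparison was chosen after the values were seen. In the V0 subunit a family, Atp6v0a1 held 77.6% ± 1.04 (SD, n = 3) in 4.5-week controls and 40.9% ± 2.14 in cKO, while Tcirg1, the a3 isoform known from osteoclasts and macrophages, went from 6.52% ± 0.63 to 40.9% ± 1.25. The family's summed level was 118 CPM per kilobase in those controls and 140 in cKO. The sums of the other families were lower in cKO, at 168 against 232 for subunit G, 126 against 164 for subunit e and 96.1 against 100.3 for subunit d, so a share there can rise without a like rise in level. Tcirg1 itself was at 23.3, 20.6 and 26.1 CPM against 185, 173 and 166, a log2 fold change of 2.90 ± 0.12 (adjusted p = 8.7e-10). At 4 weeks its share was 9.12% ± 1.03 in controls and 19.0% ± 2.66 in cKO, with its own change at 0.99 ± 0.12 (3.5e-05). In the V1 subunit G family, Atp6v1g1, found in most tissues, went from 30.3% ± 1.34 to 64.9% ± 2.45 at 4.5 weeks, as the neuronal Atp6v1g2 fell by 1.45 on the log2 scale (adjusted p = 1.1e-08). In the subunit e family, Atp6v0e went from 4.53% ± 0.50 to 21.6% ± 1.31, and Atp6v0e2 fell by 0.67. Atp6v0d2, the paralog of Atp6v0d1 known from osteoclasts and macrophages, had 6 counts over the 3 controls of 4.5 weeks and 2416 over the 3 cKO libraries, or 0.0467 against 21.7 CPM. It made up 8.82% ± 0.83 of its family in those cKO libraries and 0.0199% in controls. At 4.5 weeks, microglia marker sums were 3857 to 4146 CPM in cKO and 409 to 411 in controls, and neuron marker sums were 2919 to 3102 against 10381 to 10940. Their part in the shifts was not tested.

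**Figure D2:**
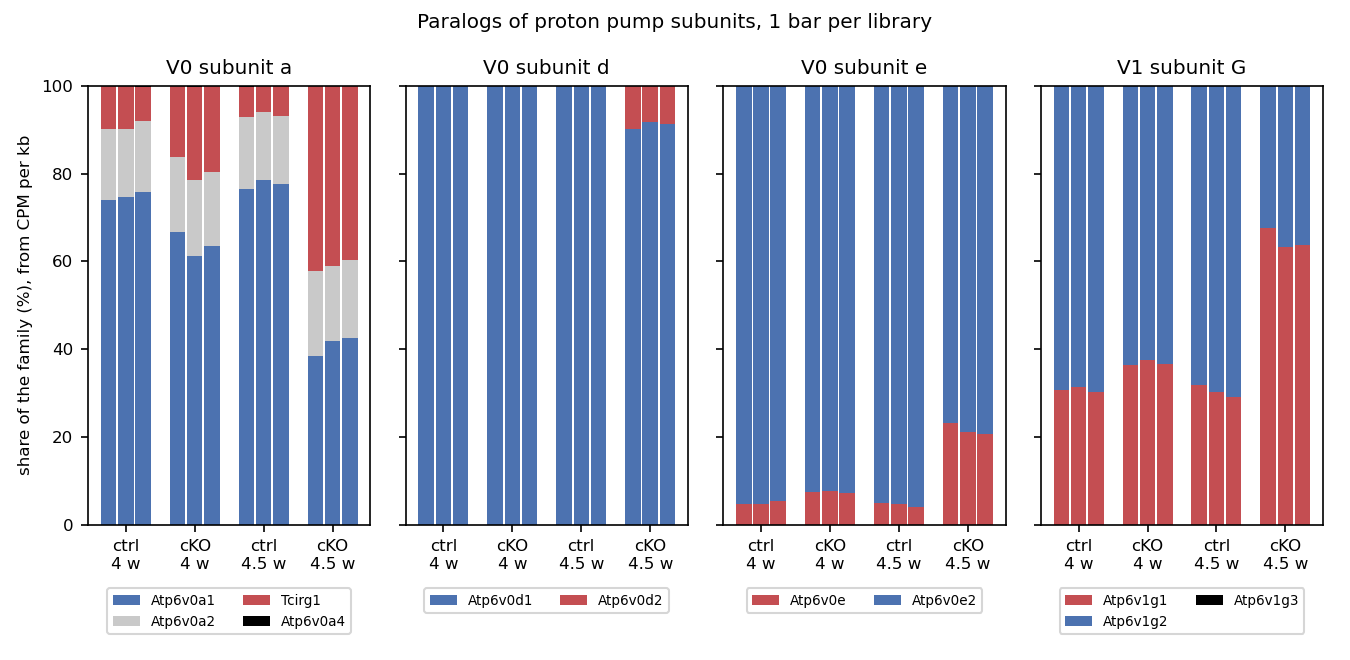
Each bar is 1 library and shows the share (%) of each paralog in its subunit family, from CPM per kilobase of exon length. In the 4.5-week cKO libraries Tcirg1 and Atp6v0a1 each hold a mean of 40.9% of the subunit a family, and Atp6v1g1 holds 64.9% of subunit G.

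Of the 5 membrane proteins, 4 were higher and 1 lower at 4.5 weeks, whereas 1 was higher and 3 lower at 4 weeks. Beside these and the class counts below stand the shares of all genes tested. They were 33.3% higher and 32.6% lower at 4.5 weeks, and 20.1% and 17.2% at 4 weeks. Lamp1, an abundant glycoprotein of the lysosomal membrane, changed sides between the times. It was at 692, 704 and 710 CPM in 4-week controls and 603, 553 and 557 in cKO, then at 628, 618 and 622 in 4.5-week controls and 1241, 1184 and 1289 in cKO. The groups did not overlap at either time. Its log2 fold change was -0.30 ± 0.06 (adjusted p = 0.0013) and then 0.99 ± 0.06 (1e-08). Npc1, which exports cholesterol from the lysosome, did the same, at 140, 145 and 155 against 110, 90.5 and 92 CPM and then 163, 178 and 168 against 218, 208 and 203. It was 1.51-fold lower at 4 weeks (log2 -0.59 ± 0.07, adjusted p = 6.2e-05) and 1.24-fold higher at 4.5 weeks (0.31 ± 0.07, 0.0026). Lamp2, the partner of Lamp1 that also serves chaperone-mediated autophagy, was higher at both times, from 114 to 121 CPM in controls to 133 to 164 at 4 weeks and from 127 to 141 to 330 to 350 at 4.5 weeks. Its later change was 1.38 ± 0.08 (adjusted p = 9.5e-09). The earlier one, 0.31 ± 0.08 (0.0079), was in an X-linked gene. Its call ended with a term for sex, which leaves 1 cKO library at 4 weeks (value 0.22). Scarb2, the receptor that brings glucocerebrosidase to lysosomes, was not called at 4 weeks and was higher at 4.5 weeks (0.45 ± 0.06, adjusted p = 1.1e-05). Mcoln1, a calcium channel of the lysosomal membrane, was lower at both times (-0.38 ± 0.06 and -0.18 ± 0.06). The later call (adjusted p = 0.022) ended in 5 of 22 alternatives, among them without control library 3 of 4.5 weeks (0.10). The Mcoln1 paralogs Mcoln3 and Mcoln2, which are not members, went the other way at 4.5 weeks. Mcoln3 had 1 count over the 4.5-week controls and 1073 over the cKO libraries of that time, and Mcoln2 had 3 and 172. In those cKO libraries Mcoln3 stood at 9.66 CPM and Mcoln1 at a mean of 41.8. At 4 weeks the counts were 0 and 6 for Mcoln3 and 10 and 36 for Mcoln2.

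**Figure D3:**
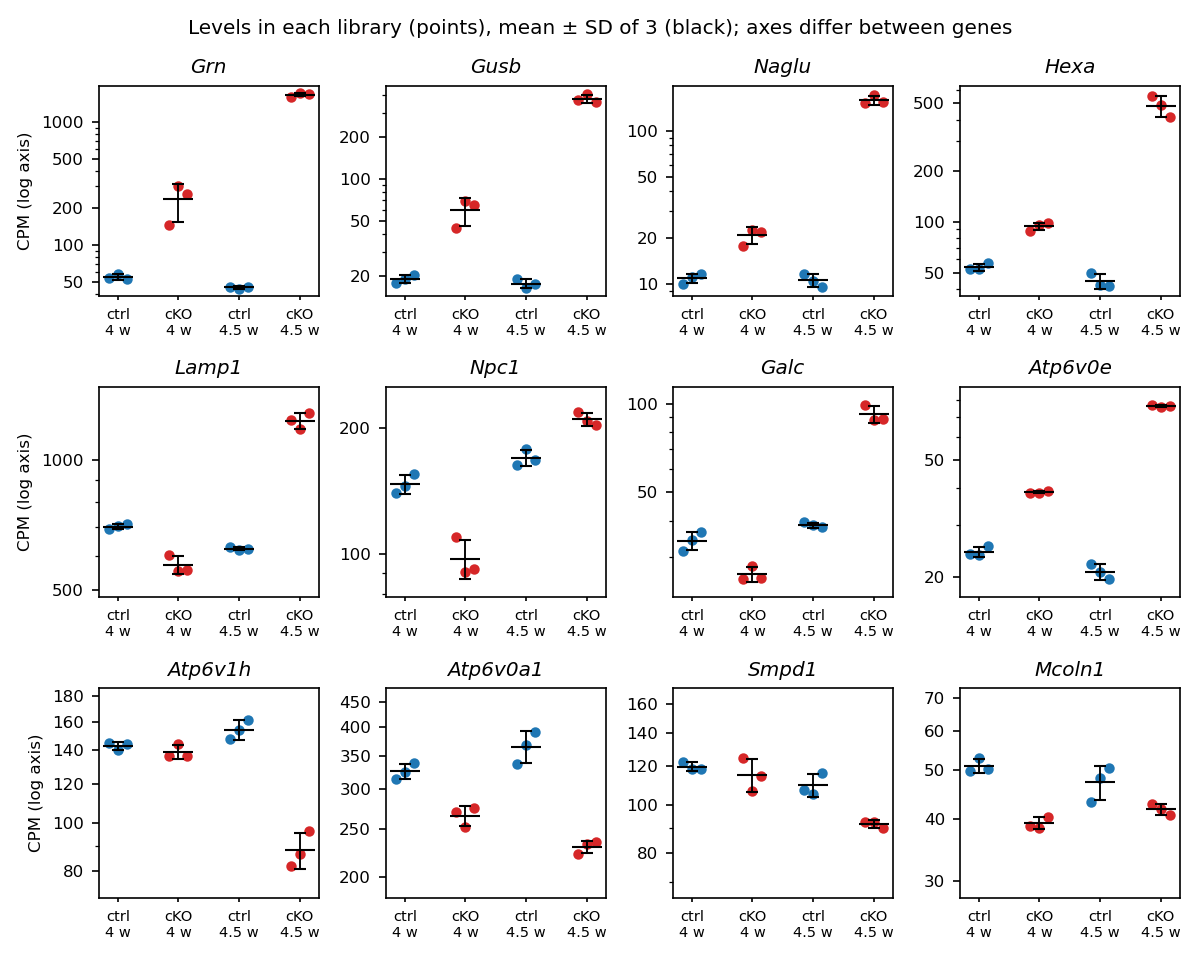
CPM on a log axis for 12 members in each library, controls in blue and cKO in red, with the mean and SD of 3 libraries in black. Grn rises from a mean of 45.2 to 1670 CPM between 4.5-week control and cKO libraries, Lamp1, Npc1 and Galc lie below their controls at 4 weeks and above them at 4.5 weeks, and Atp6v1h falls at 4.5 weeks.

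Among the lipid hydrolases, 6 of 8 were higher and 1 lower at 4.5 weeks (33.3% and 32.6% of all genes tested), with a median of 1.48. At 4 weeks 2 were higher and 2 lower (20.1% and 17.2% of all genes). Hexa, the alpha chain of the hexosaminidase that trims GM2 ganglioside, had the largest change of the 8. It was at 52.3, 52.7 and 56.8 CPM in 4-week controls and 88, 95 and 97.7 in cKO, then at 49.4, 42.4 and 41.7 against 549, 485 and 415. It was 1.74-fold higher at 4 weeks (log2 0.80 ± 0.10, adjusted p = 4.9e-05) and 10.9-fold at 4.5 weeks (3.44 ± 0.10, 1e-10). Glb1, the acid beta-galactosidase that acts on GM1 ganglioside, was 4.48-fold higher at 4.5 weeks. Its cKO libraries were at 130, 112 and 93.4 CPM against 24.4 to 25.4 in controls. At 4 weeks its rise of 0.29 ± 0.10 (adjusted p = 0.034) ended in 7 of 22 alternatives. Asah1, the acid ceramidase, and Gla, which splits globotriaosylceramide, were not called at 4 weeks and were 3.50-fold and 3.29-fold higher at 4.5 weeks. Ppt1, which removes palmitate from proteins, was higher by 0.58 ± 0.05 at 4.5 weeks, but its locus overlaps Cap1 on the opposite strand (mean 185 CPM), and these libraries do not mark strand.

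The enzymes of the myelin lipids galactosylceramide and sulfatide differed from each other. Galc, which degrades galactosylceramide, was at 31.5, 34.4 and 36.6 CPM in 4-week controls and 25.2, 28.1 and 25.5 in cKO, then at 39.4, 38.5 and 37.9 against 99.2, 88 and 88.8. It was lower at 4 weeks (-0.38 ± 0.07, adjusted p = 0.0014) and 2.38-fold higher at 4.5 weeks (1.25 ± 0.07, 9.5e-09), without overlap at either time. Arsa, which removes sulfate from sulfatide, was at 40.6, 42.5 and 41.9 against 33.2, 29.8 and 32.4 CPM at 4 weeks, a change of -0.39 ± 0.06 (adjusted p = 0.00023). At 4.5 weeks its groups overlapped, at 39.1 to 41.6 in controls and 39 to 41.3 in cKO, and the 95% interval of the change was -0.12 to 0.13. Smpd1, the acid sphingomyelinase, was the 1 lipid hydrolase lower at 4.5 weeks (-0.26 ± 0.06, adjusted p = 0.0021), at 106 to 116 CPM in controls and 89.9 to 92.7 in cKO.

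All 3 lipid-binding lumenal proteins were higher at 4.5 weeks. Psap, the precursor of the saposins that present lipids to hydrolases, had the highest mean level per length of the 42 genes in 3 of the 4 groups. In 4-week cKO libraries Atp6v0c was higher (631 against 617 CPM per kilobase), and in 4-week controls it was nearly level with Psap (600 against 602). Psap was at 1467, 1532 and 1505 CPM in 4.5-week controls and 3767, 3770 and 4108 in cKO, a 2.59-fold difference (log2 1.37 ± 0.06, adjusted p = 2e-09). At 4 weeks it was not called, with a 95% interval of -0.10 to 0.17. Npc2, which hands cholesterol to Npc1, was higher at both times, at 0.48 ± 0.08 and 2.20 ± 0.08. Npc2 and Npc1 thus differed in direction at 4 weeks. Gm2a, the activator that presents GM2 to the enzyme containing Hexa, was lower at 4 weeks (-0.38 ± 0.07, adjusted p = 0.00092), when Hexa was higher, and higher at 4.5 weeks (0.94 ± 0.07, 7.3e-08).

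Of the 8 sugar hydrolases, 7 were higher and 1 lower at 4.5 weeks (33.3% and 32.6% of all genes tested). At 4 weeks 4 were higher and 2 lower (20.1% and 17.2% of all genes). Gusb, the beta-glucuronidase, was at 17.7, 19 and 20.3 CPM in 4-week controls and 44.3, 69 and 64.8 in cKO, then at 19, 16.5 and 17.6 against 372, 405 and 355. The cKO libraries lay above the controls at both times, and the differences were 3.13-fold (log2 1.65 ± 0.14, adjusted p = 2.3e-06) and 21.3-fold (4.41 ± 0.15, 1.7e-10). Naglu, which acts on heparan sulfate, was at 9.97, 11 and 11.5 against 17.7, 22.5 and 21.8 CPM and then at 11.6, 10.4 and 9.51 against 152, 170 and 153. Its differences were 1.91-fold and 15.1-fold. Man2b1, the acid alpha-mannosidase, was 1.90-fold and 7.87-fold higher, and Fuca1, an alpha-fucosidase, 1.32-fold and 2.55-fold. These 4 were the sugar hydrolases called higher at both times.

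Arsb, which removes sulfate from dermatan and chondroitin sulfate, changed sides, from -0.21 ± 0.05 at 4 weeks to 1.27 ± 0.05 at 4.5 weeks. The call at 4 weeks ended with a term for sex, which leaves 1 cKO library, at a value of -0.23. Idua, which also acts on dermatan and heparan sulfate, was not called at 4 weeks and was 2.20-fold higher at 4.5 weeks, at 33.5 to 39.8 CPM against 15.5 to 17.3; it overlaps Dgkq on the opposite strand (mean 52 CPM). Neu1, the lysosomal sialidase, was higher at 4.5 weeks by 0.21 ± 0.07 (adjusted p = 0.012), and without control libraries 1 and 2 of that time the value was 0.12 (0.32). Gaa, which degrades glycogen, was the sugar hydrolase that was lower, at both times (-0.35 ± 0.08 and -0.36 ± 0.08). Its cKO libraries were at 299 to 331 CPM at 4 weeks, against 395 to 405 in controls, and at 304 to 310 at 4.5 weeks, against 340 to 443. The earlier call ended with a term for sex, which leaves 1 cKO library at 4 weeks (value -0.27).

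Grn had the largest change of all 42 members. It encodes progranulin, a secreted and lysosomal protein made by microglia and neurons whose loss causes a neuronal storage disease. Its level was 53.7, 58.6 and 53.4 CPM in 4-week controls and 145, 301 and 261 in cKO, then 45.9, 44.2 and 45.5 against 1615, 1712 and 1683. In the 4-week cKO group library 1 was the lowest for Grn and Gusb, and it also had the lowest microglia marker sum (764 against 1080 and 1060 CPM). Grn was 4.26-fold higher at 4 weeks (log2 2.09 ± 0.19, adjusted p = 5.8e-06) and 36.9-fold at 4.5 weeks (5.21 ± 0.22, 1e-09). Per length, it was at 19.3 CPM per kilobase in 4.5-week controls and 714 in cKO, where among the members only Psap, at 1461, was higher. Tpp1, a peptidase of the lumen, was 1.19-fold and 3.09-fold higher.

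Both transcription factors changed by less than 2-fold. Tfeb was at 24.3, 26.9 and 23.6 CPM in 4.5-week controls and 39.1, 33.7 and 37.3 in cKO (log2 0.56 ± 0.09, adjusted p = 0.0001) and was not called at 4 weeks (-0.15 ± 0.09). Tfe3 was higher at both times, by 0.35 ± 0.08 and 0.93 ± 0.08. Their relative Mitf, outside the 42 genes, was lower at 4 weeks (-0.27 ± 0.09, adjusted p = 0.034) and higher at 4.5 weeks (1.06 ± 0.09, 3.2e-07). Tfec, another relative outside the 42 genes, had 2 counts over the 4.5-week controls and 297 over the cKO libraries of that time.

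Other genes of the lysosome, in lists that do not overlap the 42, were counted in the same fits. The shares of all genes tested to set beside them were 33.3% higher and 32.6% lower at 4.5 weeks, and 20.1% and 17.2% at 4 weeks. A gene with few counts outside the 4.5-week cKO libraries passed the filter only through them, which favours a call of higher. Mcoln3 (0, 6 and 1 counts over the 4-week control, 4-week cKO and 4.5-week control libraries) and Mcoln2 (10, 36 and 3) are of this kind. The lists were not counted without such genes. Of 18 other membrane proteins, 12 were higher and 3 lower at 4.5 weeks (5 and 2 at 4 weeks), and the median log2 fold change was 0.70. Laptm5, a lysosomal protein of blood-lineage cells that include microglia, was at 31.9 to 33.8 CPM in 4.5-week controls and 659 to 747 in cKO, and Clcn7, the chloride and proton exchanger, was 2.16-fold higher. Laptm4b was lower, at 89.9 to 94.7 CPM against 177 to 196 in controls, as was Hgsnat, an enzyme of heparan sulfate breakdown (-0.82 ± 0.15). Of 17 other lumenal proteins, 14 were higher and 2 lower at 4.5 weeks (6 and 1 at 4 weeks). Pla2g15, a lysosomal phospholipase, was at 12.6 to 15.5 CPM in 4.5-week controls and 87 to 109 in cKO. Ids, the iduronate sulfatase, was lower at both times (-0.32 ± 0.06 and -0.80 ± 0.06). Of 6 genes that sort enzymes to lysosomes, 5 were higher and 1 lower at 4.5 weeks, whereas 1 was higher and 3 lower at 4 weeks. Among the 5, the 4.5-week calls of Gnptab (0.19 ± 0.08) and Gnptg (0.17 ± 0.06), parts of the enzyme that makes the mannose 6-phosphate tag, ended in 16 and 6 of 22 alternatives. The 1 lower at 4.5 weeks was Sort1, the sorting receptor that also carries progranulin, at 207, 203 and 199 CPM in cKO and 390, 428 and 430 in controls.

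Whether the effects differed between the times was tested with the difference of the log2 fold changes, 4.5 minus 4 weeks. Of the 42 members, 26 were called with a higher value at 4.5 weeks and 8 with a lower one, against 18.7% and 21.9% of all genes tested (40.7% in all). All 8 lower ones were pump genes, and the 26 higher ones included 24 of the 28 members outside the pump. Across both times, 12 members were higher at each, 4 lower at each (Atp6v0a1, Atp6v1a, Mcoln1 and Gaa), and 5 lower at 4 weeks and higher at 4.5 weeks (Lamp1, Npc1, Galc, Gm2a and Arsb). A further 9 were called higher and 9 lower at 4.5 weeks and not called at 4 weeks. Of the latter 9, Atp6v1b2, Atp6v0d1, Atp6v1d and Atp6v1c1 had all cKO libraries below the controls at 4 weeks and were called lower then by the DESeq2 Wald test. Among the 2 sets of 9 the difference between the times was itself called for all but Atp6v0c, Atp6v0d1, Smpd1 and Neu1.

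**Figure D4:**
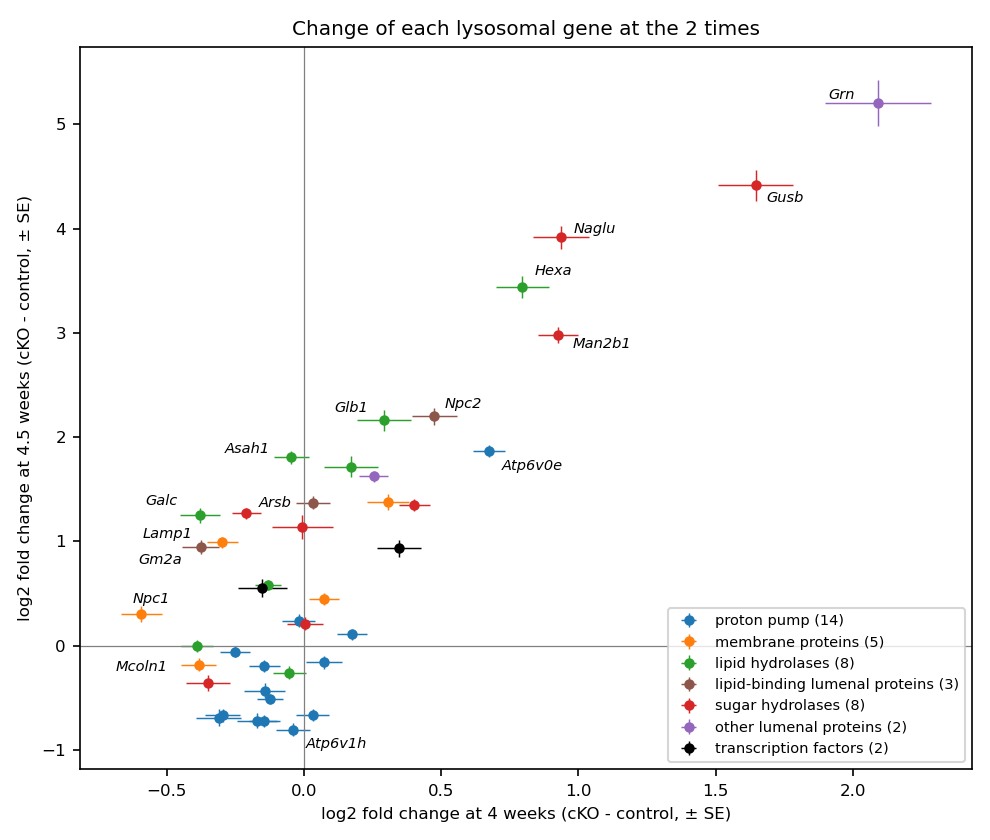
Each point is 1 member, with its log2 fold change (cKO minus control, ± SE) at 4 weeks on the horizontal axis and at 4.5 weeks on the vertical axis, coloured by class. Grn stands at the top right at 2.09 and 5.21, most pump genes lie below 0 at 4.5 weeks, and the upper left holds members such as Galc and Lamp1 that were lower and then higher.

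Between the 4-week and 4.5-week controls 5 of the 42 members were called, all pump subunits, and 19 had an unadjusted p under 0.05. Atp6v1a was higher at 4.5 weeks (0.33) and Atp6v0b, Atp6v0c, Atp6v0e and Atp6v1f were lower (-0.22 to -0.44), against 9.53% and 7.21% of all genes tested (16.7% in all). With upper quartile scaling 1 was higher and 11 lower, and with the DESeq2 Wald test 5 and 10. The 5 calls ended with a term for sex and without control libraries 1 and 2 of 4.5 weeks, where the values kept their signs: Atp6v1f was at -0.41 and -0.38 (-0.44 in the first fit), Atp6v0b at -0.33 and -0.38 (-0.41), Atp6v1a at 0.26 and 0.44 (0.33), Atp6v0e at -0.20 and -0.31 (-0.22) and Atp6v0c at -0.16 and -0.14 (-0.24). Time, sex and count table cannot be told apart in the controls.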

How the data were processed

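Messenger RNA of 12 mouse spinal cords was sequenced with a TruSeq v2 kit, per the labels' protocols. The authors deposited estimated counts for each gene in 2 tables, 1 per time, unscaled. The submitters' processing notes name STAR, RSEM and mm39. Their versions and settings and the gene annotation are not given in the sources used here. Between 3.25% and 3.81% of a library's values were fractional. Such estimated counts share reads between similar genes, so close paralogs are less certain.

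After rounding, the analysis used edgeR 4.0.16 in R 4.3.3: filter on low counts with the 4 groups (19278 genes kept, all 42 members among them), TMM scaling, 1 quasi-likelihood model with a mean per group, and Benjamini-Hochberg adjustment over all genes of a contrast. Calls needed an adjusted p under 0.05. Each adjusted p in the text comes from this test. CPM are scaled by TMM. Exon lengths for CPM per kilobase came from 1 transcript per gene in GENCODE M21 (GRCm38), so levels per length depend on that choice. On data simulated for the 4.5-week comparison over 18892 genes, 100 genes were changed by 1 and 100 by 0.5 on the log2 scale. The fit called 94% of the former and 53% of the latter. In the real data 65.9% of genes were called at 4.5 weeks, so these shares may not carry over. The alternatives were other scalings and filters, DESeq2 1.42.0, limma-voom (limma 3.58.1), each time fitted alone, a replicate block, a sex term, fits without 2 control libraries and fits without each single library.

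The members, the lists and the tests were chosen with earlier results of these data known. The rule for named genes took all members, Ddx20, and from each list of other pathway genes at most the 3 called members with the smallest p at each time and in each direction. Some genes the rule chose are left out of the text. The marker lists not described in the text gave, as called higher and lower of those tested, 2 and 2 of 5 oligodendrocyte progenitor markers at 4 weeks and 5 and 0 of 5 at 4.5 weeks, 1 and 6 then 2 and 6 of 8 astrocyte markers, 0 and 0 then 2 and 0 of 5 border macrophage markers, and 0 and 1 then 2 and 0 of 5 endothelial markers. Where a list matched 2 rows under 1 symbol, the higher row was used. No 2 libraries of a group agreed within sampling noise.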

Additional observations from a re-analysis of the deposited data

Results flagged for a closer look

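For 34 of the 42 members the effect of the cKO label differed between the times in the test of the difference (4.5 minus 4 weeks, edgeR, adjusted p under 0.05); values below are differences of log2 fold changes. In the proton pump they were -0.37 for Atp6v0a1, 0.26 for Atp6v0b, 1.20 for Atp6v0e, -0.38 for Atp6v1a, -0.55 for Atp6v1b2, -0.39 for Atp6v1c1, -0.58 for Atp6v1d, -0.70 for Atp6v1e1, -0.77 for Atp6v1h and -0.29 for Atp6ap2. Among membrane proteins they were 1.29 for Lamp1, 1.07 for Lamp2, 0.90 for Npc1 and 0.38 for Scarb2.

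The lipid hydrolases gave 0.71 for Ppt1, 1.63 for Galc, 0.39 for Arsa, 1.85 for Asah1, 2.64 for Hexa, 1.87 for Glb1 and 1.54 for Gla, and the lipid-binding proteins 1.72 for Npc2, 1.34 for Psap and 1.32 for Gm2a. The sugar hydrolases gave 1.48 for Arsb, 1.14 for Idua, 2.98 for Naglu, 2.05 for Man2b1, 0.95 for Fuca1 and 2.77 for Gusb. The remaining values were 1.37 for Tpp1, 3.11 for Grn, 0.71 for Tfeb and 0.58 for Tfe3.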

How the results depend on the processing

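No called value of a member changed sign under any of the 22 alternatives. The call held under all of them for 17 of 24 members at 4 weeks, 35 of 39 at 4.5 weeks and 31 of 34 in the difference between the times, where Atp6ap2 lost its call in 15 and Atp6v0b in 11 of 21. With a sex term, 10 members were called higher and 7 lower at 4 weeks; with DESeq2 size factors in edgeR 13 and 15, and with DESeq2 itself 13 and 16, 5 of them not called in the first fit. Between the control groups none of the 5 calls held throughout. There, upper quartile scaling gave 12 calls (11 lower), DESeq2 15 (5 higher, 10 lower), and the sex term or leaving out control libraries 1 and 2 of 4.5 weeks 0 (0 higher, 0 lower). Of the members, 2 and 9 had an unadjusted p under 0.05 in those edgeR fits. Leaving out 1 library gave 2 to 11 calls there, 0 to 2 higher and 2 to 9 lower, with 2 without control library 1 of 4 weeks or control library 2 of 4.5 weeks, 3 without control library 2 of 4 weeks or control library 3 of 4.5 weeks, 8 without control library 3 of 4 weeks and 11 without cKO library 1 of 4 weeks. Same-numbered libraries did not deviate together (r from -0.16 to 0.06), so no pairing by number was seen. With 3 animals a group this check cannot exclude it. With the replicate block, 23 members were called at 4 weeks, 37 at 4.5 weeks, 33 in the difference and 4 between the controls. With 3 animals a group, small changes can be missed, and how often was not measured at the share of changed genes found here.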

Other observations

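A list of 15 genes covers mTORC1 and TFEB-family control and includes the Tfeb relative Mitf, described above. Of these 15, 4 were called higher and 3 lower in cKO at 4 weeks, and 8 higher and 4 lower at 4.5 weeks. Here too, a gene with few counts outside the 4.5-week cKO libraries passed the filter only through them. Tfec is of this kind, with 6, 33 and 2 counts over the 4-week control, 4-week cKO and 4.5-week control libraries. Over all genes tested, 20.1% were higher and 17.2% lower at 4 weeks, and 33.3% and 32.6% at 4.5 weeks. Fnip2, a partner of folliculin, was at 15.5, 16.5 and 16.8 CPM in 4.5-week controls and 112, 108 and 107 in cKO (log2 2.75 ± 0.07, adjusted p = 3.9e-11), and its relative Fnip1 was 1.89-fold higher. Mtor, the kinase itself, was lower at both times (-0.44 ± 0.08 and -0.92 ± 0.08). The Rag GTPases, which bring mTORC1 to the lysosome, were divided at 4.5 weeks: Rragc was higher (0.79 ± 0.05), and Rraga (-0.67 ± 0.07) and Rragd (-0.39 ± 0.06) were lower. Lamtor1, which anchors the Ragulator complex, was higher at both times (0.35 ± 0.06 and 0.50 ± 0.06).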
